A study of Mus musculus with 144 samples.

Results

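Transcripts of collagens, laminins and the proteins that assemble with them were followed through the day in mouse liver and brown adipose tissue (BAT). The set held 62 of the 21869 genes in the count tables. They were picked by symbol: 44 collagen chains, 11 laminin chains, the nidogens Nid1 and Nid2, perlecan (Hspg2), fibronectin (Fn1), Sparc, lysyl oxidase (Lox) and the collagen chaperone HSP47 (Serpinh1). After a filter on low counts, 41 members could be tested in liver and 41 in BAT, 36 of them in both tissues. All animals were wild-type C57BL/6J males aged 6 months, housed singly with running wheels, and tissue was taken every 4 h over 2 days. AL mice had food for 24 h a day. TR-day and TR-night mice could eat without limit for 6 h from the start of the light or the dark phase, and CR-day and CR-night mice received 70% of their baseline intake at the start of the same phases, with access for 6 h. The series' design text places the sampling in constant darkness, while the sample labels give a light-dark cycle. Liver was sampled under all 5 regimens, with libraries marked A and B at each of 12 times, so that each regimen had 24 libraries. BAT was sampled under AL (12 libraries, all letter A) and CR-day (12 samples, all letter B, of which 11 have counts used here), with 1 library per time, so that letter and regimen cannot be told apart in this tissue. The design text calls the liver letters biological replicates, but no label ties a library to an animal, so p-values measure the spread between these samples, which may be technical.

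Collagen chains wind around each other in groups into a triple helix in which glycine recurs at a fixed spacing (Gly-X-Y), and HSP47 binds this helix in the endoplasmic reticulum before it is secreted. Fibrillar collagens (Col1a1, Col1a2, Col3a1, Col5a1 to Col5a3, Col27a1) form the fibres of the stroma, FACIT collagens such as Col14a1 lie on the surface of those fibres, and lysyl oxidase cross-links them. Basement membranes are sheets under epithelia and around vessels, fat cells and muscle fibres, built from a laminin network and a type IV collagen network (Col4a1, Col4a2) that nidogens and perlecan join. In liver, stellate cells and portal fibroblasts are known sources of fibrillar collagens, whereas hepatocytes secrete fibronectin and make collagen XVIII (Col18a1).

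The glycine repeat that sets the collagens of the set apart from its other members was visible in their coding sequences. In GENCODE vM21 transcripts, the longest uninterrupted run of Gly-X-Y triplets held 23 to 344 triplets in the 44 collagens (median 58.5), with 338 in Col1a1, 344 in Col3a1, 217 in Col27a1 and 40 in Col4a1. The 18 other members had runs of 1 to 3 triplets. Glycine codons made up 24.2% of the codons in the median collagen and 8.2% in the median other member, and the median GC content of the coding sequence was 58.85% and 56.2%. Stretches of 24 codons show the repeat, with glycine codons in capitals: 8 in Col1a1 on chromosome 11 (coding bases 2023 to 2094), 8 in Col27a1 on chromosome 4 (coding bases 2989 to 3060) and 3 in Lamb1 on chromosome 12 (coding bases 2752 to 2823), a laminin chain without the repeat.
Col1a1: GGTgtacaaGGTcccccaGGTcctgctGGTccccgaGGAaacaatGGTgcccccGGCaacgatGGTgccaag
Col27a1: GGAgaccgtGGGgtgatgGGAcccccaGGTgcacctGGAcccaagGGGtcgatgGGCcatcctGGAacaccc
Lamb1: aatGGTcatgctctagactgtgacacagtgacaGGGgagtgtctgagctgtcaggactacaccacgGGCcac

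Promoter windows from RefSeq (GRCm38.p6, 250 bases before to 50 after a start site) were found for 44 members, in 48 windows. The windows of Col4a1 (chr8:11312777-11313076, minus strand) and Col4a2 (chr8:11312555-11312854, plus strand), which encode the chains of the main type IV collagen, are shown because the genes are transcribed away from each other and their windows share 78 bases, in capitals.
Col4a1: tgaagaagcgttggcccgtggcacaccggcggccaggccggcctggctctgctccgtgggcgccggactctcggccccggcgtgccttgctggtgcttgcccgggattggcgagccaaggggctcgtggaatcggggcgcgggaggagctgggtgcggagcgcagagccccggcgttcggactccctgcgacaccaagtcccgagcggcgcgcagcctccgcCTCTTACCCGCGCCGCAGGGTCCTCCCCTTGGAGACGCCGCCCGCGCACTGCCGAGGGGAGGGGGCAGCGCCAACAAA
Col4a2: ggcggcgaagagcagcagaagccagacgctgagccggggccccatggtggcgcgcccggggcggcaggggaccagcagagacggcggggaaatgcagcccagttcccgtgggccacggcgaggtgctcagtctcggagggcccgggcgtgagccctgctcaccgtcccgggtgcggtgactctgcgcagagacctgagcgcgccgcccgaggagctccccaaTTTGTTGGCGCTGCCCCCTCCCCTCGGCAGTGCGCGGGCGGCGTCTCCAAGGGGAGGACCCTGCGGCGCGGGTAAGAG

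The windows of Col1a2 (chr6:4505368-4505667, plus strand), a stromal fibre chain, and Col27a1 (chr4:63215162-63215461, plus strand), a fibrillar chain with large daily swings in liver, are shown with CCAAT boxes (letters CCAAT) and GC boxes (letters GGGCGG) on either strand in capitals, 4 and 2 matches. The E-box of clock factors (CACGTG, which reads the same on both strands) was in 0 of the 48 windows of members and in 7.15% of the 32851 windows of all genes. A D-box (TTATGTAA or TTATGCAA, either strand) was in 2.08% of members' windows and 1.66% of all windows, a CCAAT box in 31.2% and 37.4%, a GC box in 60.4% and 35.7%, and a TATA box (TATAAA) in 10.4% and 13.6%. The median GC content of the windows was 59.8% for members and 52.7% for all genes. These letters were searched in this window alone.
Col1a2: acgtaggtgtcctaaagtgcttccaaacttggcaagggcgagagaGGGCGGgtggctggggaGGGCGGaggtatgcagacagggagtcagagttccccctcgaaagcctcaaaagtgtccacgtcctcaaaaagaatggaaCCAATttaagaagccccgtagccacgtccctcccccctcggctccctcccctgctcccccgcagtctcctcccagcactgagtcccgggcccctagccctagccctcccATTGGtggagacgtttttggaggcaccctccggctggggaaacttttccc
Col27a1: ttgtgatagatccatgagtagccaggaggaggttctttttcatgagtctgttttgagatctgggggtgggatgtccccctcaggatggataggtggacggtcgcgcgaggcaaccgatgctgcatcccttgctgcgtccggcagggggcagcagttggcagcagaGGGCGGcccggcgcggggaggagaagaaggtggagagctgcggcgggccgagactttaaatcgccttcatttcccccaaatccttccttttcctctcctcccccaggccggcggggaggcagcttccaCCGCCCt

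Liver libraries held 5830040 to 26649153 counted reads (median 10704775.5) and BAT libraries 6978002 to 11607273. Letters A and B of a regimen differed with the GC content of genes: over all genes tested, the log2 difference of B minus A had a Spearman correlation with GC content of 0.80 in AL and -0.79 in CR-day, and of -0.56 for CR-night, 0.39 for TR-day and 0.64 for TR-night. AL letter B and CR-day letter A stood apart, with 13.3% and 13.7% of reads from mitochondrial genes against 22.8% to 32.1% in the other liver sets, and with 0.431% and 0.424% of reads from members against 0.156% to 0.245%. Of the 41 members, 20 differed between the letters in AL, all higher in B (58.1% of all genes differed), 22 in CR-day, 11 in each direction (76%), 5 in CR-night (13.3%), 2 in TR-night (21.1%) and 0 in TR-day (15%), where 1 passed at an unadjusted p under 0.05 (edgeR's quasi-likelihood test, Benjamini-Hochberg adjusted p under 0.05). In 3 libraries the clock genes together read 6 h or more before the labelled time: TR-day at 0 h letter A (8.75 h), TR-day at 44 h letter A (6.5 h) and BAT CR-day at 32 h (6.75 h). Hepatocyte markers summed to 48100 to 127000 CPM (reads of a gene scaled to a common library size) in liver and 7.22 to 297 CPM in BAT, and brown adipocyte markers to 2130 to 5200 CPM in BAT. Skeletal muscle markers in BAT ran from 3.22 to 2640 CPM (median 1880) in AL and from 93.8 to 888 CPM (median 525) in CR-day.

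The widest differences in stromal collagen expression in liver lay between single libraries. In 6 liver libraries the summed level of Col1a1, Col1a2 and Col3a1, the chains of collagens I and III, lay more than 3 times above the median of its regimen. The sum was 324.8 CPM in AL at 12 h letter B, 10.4 times the AL median. It was 391.9 CPM in CR-day at 24 h letter B and 487.3 CPM in CR-day at 44 h letter B, 11.2 and 14 times the median, 115.1 CPM in CR-night at 0 h letter A and 197.3 CPM in CR-night at 4 h letter A, 3.47 and 5.94 times, and 256.6 CPM in TR-night at 0 h letter A, 7.32 times. The next highest library of each liver regimen lay at 1.47 to 1.88 times its median, and none of the 24 TR-day libraries and none of the 23 BAT libraries passed 3 times. The other letter at the same labelled time was thus at or below 1.88 times the median in each case. These libraries were singled out after their values were seen, so they are described here without a test.

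**Figure D1:**
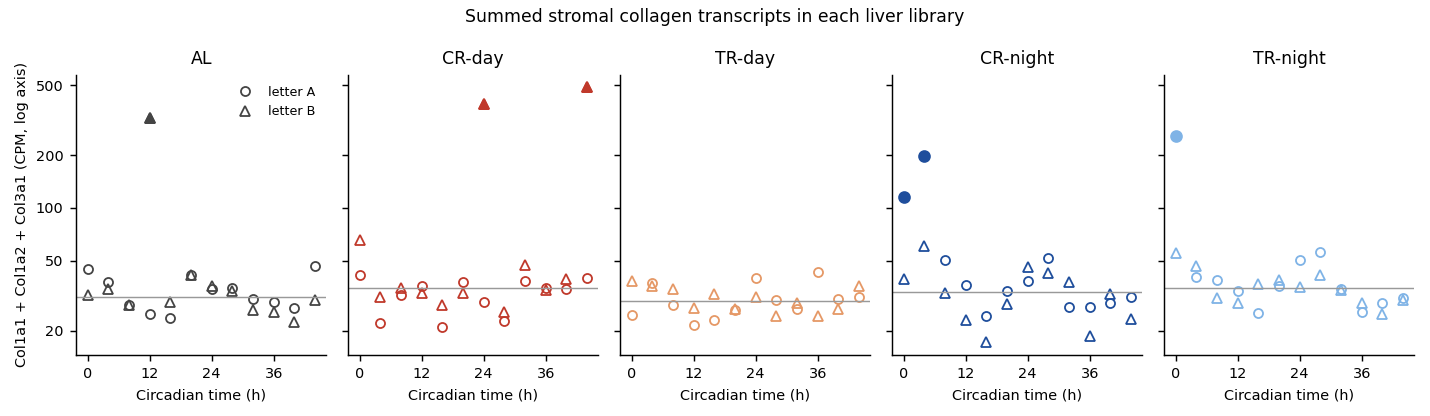
Summed CPM of Col1a1, Col1a2 and Col3a1 (log axis) in each of the 120 liver libraries against circadian time, with circles for letter A, triangles for letter B and a line at the median of the regimen. The 6 filled symbols, at 115.1 to 487.3 CPM, lie more than 3 times above the line, and TR-day has none.

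The rise in these libraries took in some fibrillar and basement membrane chains and left out others. Col1a1 reached 84.3, 78.7, 103, 24.9, 34.9 and 46.9 CPM in the 6 libraries, in the order above, which is 20, 17, 22.3, 6.37, 8.94 and 13.1 times the regimen's median. Col3a1 reached 165, 217, 276, 61.6, 119 and 146 CPM. The libraries were chosen by the sum of Col1a1, Col1a2 and Col3a1, so high values of these chains follow from the choice. The share of all genes above 2 times the median in these libraries is not given here. In all 6 libraries 14 members lay above 2 times the median: the fibrillar chains Col1a1, Col1a2, Col3a1 and Col5a2, all 3 collagen VI chains tested (Col6a1, Col6a2, Col6a3), Col8a1, the basement membrane chains Col4a1 and Col4a5, the laminin chain Lama2, Nid1, Sparc and Serpinh1. Nid1 lay at 3 to 6.06 times the median and Sparc, a collagen-binding matrix protein, at 2.19 to 4.99 times. In none of the 6 did Fn1 (0.348 to 0.671 times), Col18a1 (0.304 to 0.875 times), Col27a1 (0.164 to 0.25 times), Col14a1, Col15a1, Lamc1 or 7 further members pass 2 times. Col27a1 was at 7.47 to 11.7 CPM in the 6 libraries, which held its lowest value of each of the 4 regimens concerned.

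Markers of some other cells moved with these libraries, while other sums stayed within the range of the remaining libraries of the regimen. The summed level of 6 cell-cycle markers was 3.8 to 10.3 times the regimen's median, that of 6 cholangiocyte markers 1.11 to 9.07 times, that of 6 Schwann cell markers 1.47 to 3.09 times and that of 9 adipocyte markers 1.59 to 2.66 times. Stellate cell markers lay at 1.07 to 1.4 times, fibroblast markers at 1.12 to 2.07 times and hepatocyte markers at 0.501 to 0.811 times. Macrophage markers lay at 1.23 to 2 times, pericyte and smooth muscle markers at 0.935 to 1.37 times and endothelial markers at 0.787 to 1.38 times. Skeletal muscle markers lay at 0.588 to 3.01 times, and brown adipocyte markers were lower in all 6, at 0.231 to 0.481 times. In both CR-night libraries the cholangiocyte, Schwann cell, fibroblast and hepatocyte sums lay within the range of the other CR-night libraries. Fibroblast, stellate cell and pericyte sums in AL and stellate cell sums in CR-day also lay within the range of their regimen. Macrophage sums did so in all but the AL library, and endothelial sums in all but CR-night at 0 h. The part of these cells in the result was not tested, and in bulk tissue fewer cells of a type and less RNA per cell cannot be told apart. Members together took 0.148% to 0.463% of the reads in the 6 libraries.

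The tissues differed in which matrix genes they expressed most, as CPM per kilobase of transcript in AL. In liver the highest levels were those of Fn1 (158 ± 40.9, SD, n = 24) and Col18a1 (85.3 ± 33.8), followed by Sparc (7.97 ± 4.32), Col14a1 (6.92 ± 1.32), Col27a1 (6.31 ± 4.01) and Col5a3 (5.55 ± 1.92). In BAT Sparc was highest (101 ± 12.3, SD, n = 12), followed by Serpinh1 (30.9 ± 13.4), Col4a1 (21.5 ± 3.55), Col4a2 (16.6 ± 2.77) and Col3a1 (9.13 ± 2). BAT thus led with Sparc, the collagen chaperone and the type IV chains, and Fn1 and Col18a1 stood at 0.828 ± 0.229 and 0.732 ± 0.194 there. Among laminins, the endothelial and adipose chain Lama4 was at 4.82 in BAT, while Lama1 and Lama3 were at 0.436 and 0.727 in liver and 0.000922 and 0.0534 in BAT. Lox was at 4.18 ± 1.4 in BAT and 0.0539 ± 0.0847 in liver, where it did not pass the filter and 3 of 24 AL libraries held 0 reads of it. Members that could be tested in liver alone included Col16a1, Col24a1, Lama1 and Lama3, and those tested in BAT alone were Col23a1, Col4a3, Col6a6, Col7a1 and Lox. The 16 tested in neither tissue were Col2a1, Col4a6, Col6a4, Col6a5, Col8a2, Col9a1, Col9a2, Col9a3, Col10a1, Col11a1, Col17a1, Col19a1, Col22a1, Col25a1, Col26a1 and Col28a1, with means of at most 0.0478 (Col8a2) in AL liver and 0.193 (Col28a1) in AL BAT. No reads of Col10a1, Col19a1 and Col26a1 were counted in AL liver, nor of Col9a1 in AL BAT. The tissues were counted in separate tables and their libraries differ in mitochondrial share (61.2% of AL reads in BAT), so levels are set side by side without a test.

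**Figure D2:**
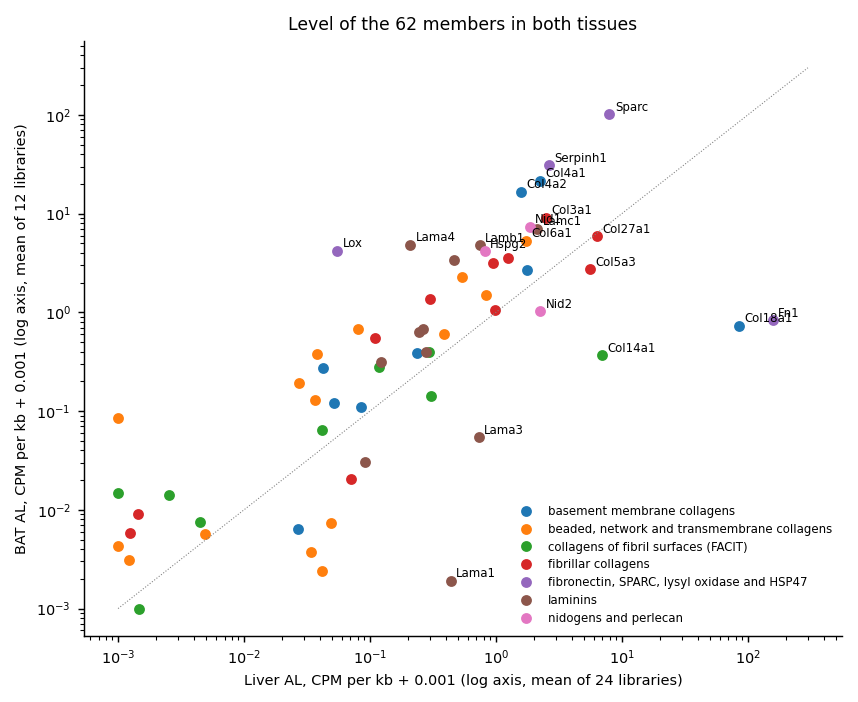
Mean level of each of the 62 members in AL liver (24 libraries, x axis) and AL BAT (12 libraries, y axis), in CPM per kilobase plus a small constant on log axes, coloured by class, with a dotted line at equal levels. Fn1 and Col18a1 lie far to the right at 158 and 85.3 in liver, and Sparc lies at the top at 101 in BAT.

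In liver, the daily peaks of a few matrix genes lay close to 12 h apart between day-fed and night-fed mice, and Nid2 and Col27a1 had the smallest p-values. Nid2, a basement membrane linker, ran in AL from 17.7 ± 2.63 CPM (SD, n = 4) at 0 h to 7.41 ± 1.3 at 16 h. In CR-day it was at 6.6 ± 1.58 at 0 h and 16 ± 1.88 at 12 h, and in TR-day at 5.04 ± 1.54 at 4 h and 13 ± 1.69 at 12 h. In both day regimens Nid2 was thus high at the hours when it was low in AL. Under CR-night it was at 17.6 ± 3.26 at 0 h and 6.32 ± 1.87 at 12 h, and under TR-night at 19 ± 2.42 and 5.45 ± 1.39, which is the order seen in AL. Over all 24 libraries the lowest, median and highest values were 5.52, 12 and 20 CPM in AL, 4.56, 10.4 and 18.6 in CR-day, 2.1, 8.88 and 15.5 in TR-day, 4.04, 9.48 and 19.6 in CR-night and 4.12, 9.89 and 20.3 in TR-night, so that the regimens overlap in range and differ in timing. A 24 h cosine put the Nid2 peak at 0.362 ± 0.444 h (SE) in AL, 12.3 ± 0.548 h in CR-day and 13.1 ± 0.711 h in TR-day, against 23.3 ± 0.49 h in CR-night and 0.0955 ± 0.379 h in TR-night, with amplitudes (mean to peak) of 0.64 to 0.78 log2 units. Without the collagen-rich libraries the peaks were 0.338 h in AL, 11.9 h in CR-day and 23.1 h in CR-night. The rhythm of Nid2 differed from AL in CR-day (edgeR adjusted p = 9.6e-13) and in TR-day (edgeR adjusted p = 3.2e-12), as it did between CR-day and CR-night (edgeR adjusted p = 1.4e-13) and between TR-day and TR-night (edgeR adjusted p = 9.0e-14).

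Col27a1, a fibrillar collagen best known from cartilage, had a larger amplitude than Nid2 in every liver regimen. In AL it was at 178 ± 40.3 CPM (SD, n = 4) at 16 h and 45.1 ± 15.7 at 4 h. In CR-day it was at 124 ± 50.1 at 8 h and 21.9 ± 10.4 at 20 h, and in TR-day at 112 ± 48.9 at 4 h and 23.9 ± 3.06 at 20 h. The day regimens were thus high when AL was low. CR-night and TR-night peaked at 16 h as AL did, at 84 ± 33.3 and 113 ± 16.9. The fitted peaks were 18 ± 0.996 h in AL, 6.68 ± 0.529 h in CR-day, 5.99 ± 0.517 h in TR-day, 16.9 ± 0.983 h in CR-night and 16.3 ± 0.755 h in TR-night, with amplitudes of 0.82 to 1.34 log2 units. The differences in rhythm passed for CR-day against AL (edgeR adjusted p = 5.9e-12), TR-day against AL (edgeR adjusted p = 2.9e-10), CR-day against CR-night (edgeR adjusted p = 5.3e-11) and TR-day against TR-night (edgeR adjusted p = 6.3e-10). Without the 6 collagen-rich libraries, in all of which it was low, the peaks were 16.8 h in AL and 5.95 h in CR-day and all 4 differences still passed.

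Col5a3, a minor fibre chain, and Col15a1, a collagen of vascular and muscle basement membranes, shifted in the same manner. Col5a3 peaked at 0.709 ± 0.754 h in AL, 1.61 ± 0.588 h in CR-night and 2.89 ± 0.729 h in TR-night, but at 14.4 ± 1.16 h in TR-day, and its fitted peak in CR-day was 14.2 h with a rhythm that did not pass by itself (edgeR adjusted p = 0.058). Its rhythm differed in all 4 comparisons that set a day regimen against AL or against its night counterpart, with edgeR adjusted p from 5.7e-06 to 4.7e-04. Col15a1 peaked at 6.59 ± 1.2 h in TR-day and at 19.1 ± 1.31 h in CR-night, and it differed between TR-day and TR-night (edgeR adjusted p = 0.00121) and between CR-day and CR-night (edgeR adjusted p = 0.0018). Lama3, a chain of epithelial laminins, peaked at 15.6 ± 1.2 h in CR-night and 15.8 ± 0.957 h in TR-night, and its fitted peak in the day regimens was 4.2 h (CR-day) and 1.62 h (TR-day), where its rhythm did not pass. It differed between the windows of both feeding types (edgeR adjusted p = 0.00175 for CR, 0.0012 for TR).

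**Figure D3:**
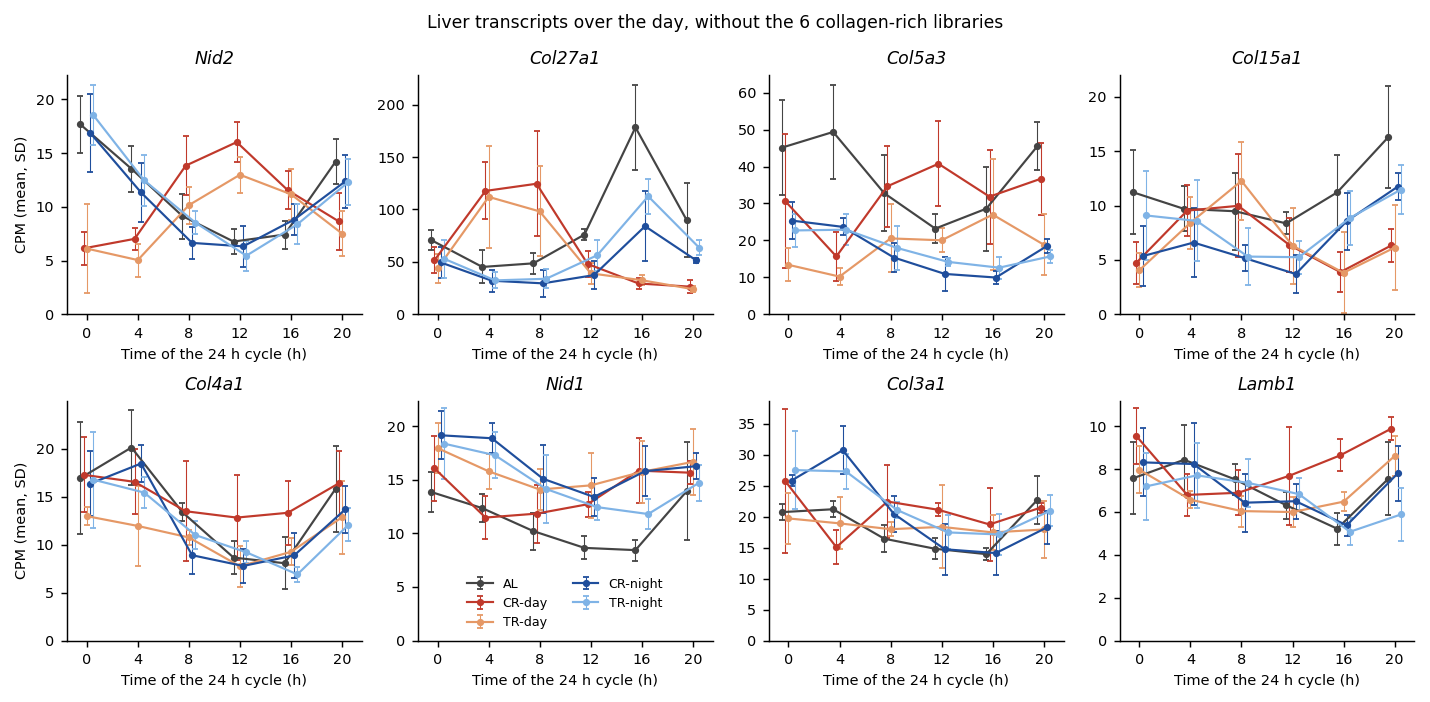
Mean CPM (bars, SD) of 8 members over the 24 h cycle in liver under the 5 regimens, without the 6 collagen-rich libraries, with 3 or 4 libraries per point. Nid2, Col27a1, Col5a3 and Col15a1 run opposite in the day regimens (red, orange) and in AL and the night regimens (grey, blue), and Col4a1, Nid1, Col3a1 and Lamb1 lie closer together.

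How many other members were rhythmic depended on the 6 libraries. In AL 3 of 41 members were rhythmic with all libraries, against 12.4% of all genes, and 14 without those 6 libraries, of which AL holds 1 (16.2% of all genes). In CR-day the counts were 17 (16.4% of all genes) and 7 (15.9%), and in CR-night 22 (35.3%) and 19 (34.6%). In TR-night they were 16 (26.4%) and 18 (27.1%), and in TR-day 4 (15.5%) and 6 (17.9%). The TR-day count, with no such library, can change because the regimens share 1 normalization and 1 estimate of spread. In AL the members gained included Lama4 (peak at 1.63 h, edgeR adjusted p = 2.1e-04), Serpinh1 (20.6 h, edgeR adjusted p = 0.00207), Col4a2 (3.5 h, edgeR adjusted p = 0.00425), Col3a1 (0.447 h, edgeR adjusted p = 0.00582) and Col1a1 (23.5 h, edgeR adjusted p = 0.0251). Of the 14 rhythmic members, 11 peaked between 0 and 6 h, the first hours of the subjective day, as did 14 of 19 under CR-night and 13 of 18 under TR-night. Under CR-day 1 of 7 peaked in these hours and 4 between 18 and 24 h. The share of all rhythmic genes that peaked in these hours is not given here. These counts therefore do not show whether members differ from other genes in peak time.

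In CR-day the rhythm of the stromal fibre genes passed with the libraries at 24 h and 44 h and did not pass without them. Col1a1 had an amplitude of 0.78 ± 0.36 log2 units (edgeR adjusted p = 7.8e-05) with all libraries and of 0.15 ± 0.16 (edgeR adjusted p = 0.559) without them. Col3a1 went from 0.54 to 0.08 (edgeR adjusted p = 0.928), Col1a2 from 0.56 to 0.10 (edgeR adjusted p = 0.815) and Sparc from 0.34 to 0.12 (edgeR adjusted p = 0.79). Lamb1, a laminin chain of most basement membranes, kept an amplitude of 0.27 ± 0.07 and a peak at 19.8 h (edgeR adjusted p = 0.0122), and Nid1 one of 0.29 ± 0.07 and a peak at 19.4 h (edgeR adjusted p = 0.0096). In the night regimens Col1a1, Col3a1 and Col4a1 passed either way. By class, 7 of 9 fibrillar collagens tested were rhythmic in CR-night, 3 of 6 basement membrane collagens and 3 of 11 laminins, and 7, 3 and 2 without the rich libraries. Col3a1 in CR-night had an amplitude of 0.82 ± 0.14 with a peak at 2.63 h (edgeR adjusted p = 0.00185) and of 0.60 ± 0.08 without them (edgeR adjusted p = 1.5e-06). Col4a1 in CR-night had 0.80 ± 0.10 at 1.05 h (edgeR adjusted p = 6.2e-05) and then 0.68 ± 0.08 (edgeR adjusted p = 1.9e-06). Col1a1 in TR-night had 0.96 ± 0.22 at 1.66 h (edgeR adjusted p = 0.00232) and then 0.74 ± 0.13 (edgeR adjusted p = 1.8e-05). Serpinh1, the chaperone of these chains, peaked earlier, at 20.2 ± 0.699 h in CR-night and 20 ± 0.743 h in TR-night. Amplitudes, peak times and their SE come from a cosine fit to log2 CPM with a letter term in liver. The p-values beside them come from edgeR's count fit without a letter term, so they do not test those estimates directly.

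Tests of a change in rhythm, in amplitude or in phase, passed for 22 members between CR-day and AL and for 4 between TR-day and AL, and for 0 between either night regimen and AL, where close to none of all genes passed. For CR-day against AL, the 22 of 41 members stood against 21.9% of all genes, and 13 passed without the rich libraries (23.6% of all genes), 11 of them the same. The members that passed either way included Nid2, Col27a1, Col5a3, Col14a1 (fitted peak 19.1 h in CR-day and 4.5 h in AL), Lamb1 (20.6 h and 4.25 h), Lama4 and Nid1. With all libraries Nid2, Col27a1 and Col5a3 were rhythmic by themselves in AL, while Col14a1, Lamb1, Lama4 and Nid1 were not. For TR-day against AL the 4 members (16.3% of all genes) were Nid2, Col27a1, Col5a3 and Col15a1, and 9 passed without the rich libraries (19.2%). For CR-day against CR-night 18 passed (34%) and 16 without the rich libraries (33.8%), and for TR-day against TR-night 7 (25.8%) and 12 (27.3%). For CR-night against AL 0 members passed (0.0252% of all genes), with 16 at an unadjusted p under 0.05, and for TR-night against AL 0 (0.00839%), with 9 at an unadjusted p under 0.05, by edgeR's quasi-likelihood test. All comparisons with AL share the same AL libraries. Without the 3 libraries whose clock genes read early the 4 members called for TR-day against AL were the same, and 6 in place of 7 passed for TR-day against TR-night. The median amplitude of members was 0.37 log2 units in CR-day and 0.47 in CR-night against 0.19 and 0.27 for all genes, and 0.22 in AL against 0.18. Without the rich libraries it was 0.21 in CR-day, 0.38 in CR-night and 0.28 in AL, against 0.19, 0.27 and 0.19 for all genes, so that the CR-day value fell to near that of all genes.

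The level of the liver members, averaged over the day, differed between regimens in ways that followed the letters. Against AL, 6 of 41 members were higher and 21 lower in CR-night (38.1% and 41.1% of all genes), 5 higher and 24 lower in TR-day (38.3% and 42.1%) and 5 higher and 21 lower in TR-night (39.4% and 41.3%). In CR-day 8 were higher and 3 lower (12.6% and 6.98%). Without the rich libraries the splits were 10 and 21, 11 and 24, 11 and 20, and 8 and 3. These splits, and those with upper-quartile normalization, are given without the share of all genes and cannot be read against it. Upper-quartile normalization gave 4 and 3 for CR-day and 2 and 23 for TR-night; it placed the median of all genes between -0.108 and 0.107 in the liver comparisons. In TR-day 5 of 9 fibrillar collagens, 4 of 6 basement membrane collagens and 6 of 11 laminins tested were lower. A correction for GC content and gene length turned these splits to 17 and 4 in CR-night (27.8% and 28% of all genes), 15 and 4 in TR-day (29.1% and 29.5%), 18 and 5 in TR-night (28.9% and 30%) and 13 and 1 in CR-day (9.31% and 7.21%). Letter B alone gave 1 higher and 22 lower in each of CR-night (39% and 41.3% of all genes), TR-day (37.3% and 40.1%) and TR-night (36.9% and 39.4%) and 8 higher and 16 lower in CR-day (38.6% and 38.2%). Letter A alone gave 12 and 4 in CR-night (25.5% and 27%), 8 and 14 in TR-day (32.8% and 35.1%), 10 and 14 in TR-night (34.5% and 36.5%) and 19 and 1 in CR-day (30.6% and 29%). The majority direction of the called members turned with the letter in CR-night and CR-day and with the correction in CR-night, TR-day and TR-night, and AL letter B is the set with the highest share of reads from members. The median log2 fold of members was -0.40, -0.53 and -0.46 in CR-night, TR-day and TR-night, beside medians of -0.02, -0.03 and -0.01 for all genes. With the correction and without the rich libraries the calls were 23 higher and 4 lower in CR-night (28.6% and 28.2% of all genes), 24 and 5 in TR-day (31.2% and 29.9%) and 26 and 5 in TR-night (30.3% and 30.6%). When the counts were summed per regimen and letter, 0 members passed in edgeR's test in any comparison of liver levels, with 1 to 17 at an unadjusted p under 0.05.

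**Figure D4:**
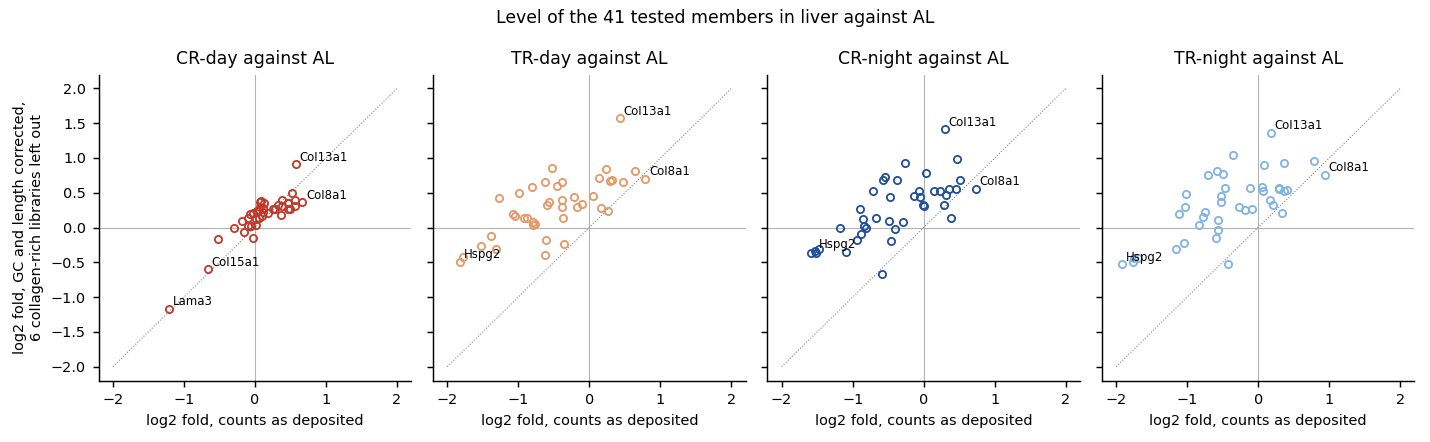
Log2 fold of the 41 tested members in liver against AL, from the deposited counts (x axis) and after correction for GC content and length without the 6 collagen-rich libraries (y axis), with a dotted line of equal values. In TR-day, CR-night and TR-night most points move up from below 0 to above 0, and in CR-day they lie near the line, with Lama3 lowest.

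A few members kept their call in both letters and after the correction. Lama3 ran from 0.582 to 6.55 CPM (median 3.38) in CR-day and from 1.8 to 15.2 CPM (median 7.1) in AL. The ranges overlap, and the CR-day mean of 3.42 ± 1.59 (SD, n = 24) was below the AL mean of 7.81 ± 3.19, a log2 fold of -1.21 ± 0.17 (SE, edgeR adjusted p = 3.3e-08) that was -1.23 in letter A, -1.16 in letter B, -1.14 with the correction and -1.20 without the rich libraries. Lama3 was also lower in CR-day than in CR-night (log2 fold -0.75, edgeR adjusted p = 1.4e-04, and -0.90 with the correction), where the call was not kept in both letters. It was lower in TR-day (5.15 ± 2.04 CPM) than in TR-night (9.09 ± 4.01), with a log2 fold of -0.79 ± 0.17 (edgeR adjusted p = 0.00154). In that comparison Lama3 was the single member called, with 0 higher and 1 lower (1.65% and 1.77% of all genes). Its edgeR adjusted p was 0.0538 in letter A alone and 0.0245 in letter B alone. Lama4, a laminin chain of vessels and fat cells, was at 3.57 ± 1.49 CPM in CR-day and 2.5 ± 1.06 in AL (log2 fold 0.52 ± 0.13, edgeR adjusted p = 0.00324), and Col14a1 at 59.4 ± 16.2 and 48.5 ± 9.28 CPM (0.28 ± 0.07, edgeR adjusted p = 0.00435). Both passed in each letter, and without the rich libraries their log2 folds were 0.52 and 0.26.

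Perlecan (Hspg2), the heparan sulfate proteoglycan of basement membranes, was among the members with the largest falls in TR-day and in TR-night against AL. It ran from 1.03 to 6.24 CPM (median 2.91) in TR-day and from 2.47 to 25.2 CPM (median 9.18) in AL. The ranges overlap, and the AL median lay above every TR-day library. That median fell between the AL letters, which ran from 2.47 to 8.32 CPM in A and from 10.04 to 25.2 CPM in B. Letter A of AL overlapped letter A of TR-day, at 1.03 to 5.84 CPM. Over both letters the means were 3.3 ± 1.33 in TR-day and 11.6 ± 6.68 in AL (SD, n = 24), a log2 fold of -1.82 ± 0.23 (edgeR adjusted p = 1.6e-11). This fold was -0.81 in letter A, -2.44 in letter B, -1.68 without the rich libraries and -0.57 with the correction (edgeR adjusted p = 3.2e-05). In TR-night the log2 fold was -1.91, and -0.63 with the correction. Lama5, a laminin chain of many adult basement membranes, fell by 1.59 log2 units under CR-night, 1.78 under TR-day and 1.75 under TR-night, and by 0.55, 0.62 and 0.55 with the correction. Col8a1, a network collagen of vessel walls, was higher in all 3, by 0.73, 0.79 and 0.94 log2 units, and by 0.48, 0.56 and 0.68 with the correction. In TR-night it did not pass in letter B alone (log2 fold 0.57, edgeR adjusted p = 0.0668). For others the correction ended or turned the call. Col18a1 was at 320 ± 86.5 CPM in CR-night and 599 ± 238 in AL, a log2 fold of -0.90 that became 0.26 with the correction (edgeR adjusted p = 9.5e-04). Col5a3 went from -1.18 to 0.00 in CR-night, and Fn1 from -0.61 to -0.15 in TR-day (edgeR adjusted p = 0.134).

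Between the liver regimens that share a feeding window or a diet, the same dependence appeared. CR-day was higher than CR-night in 21 members and lower in 1 (37.8% and 30.1% of all genes), and 7 and 5 with the correction (21.1% and 17.7%). It was higher than TR-day in 26 and lower in 1 (38.5% and 31%), and 6 and 4 with the correction (22.2% and 19.3%). With the correction and without the rich libraries the splits were 7 and 12 (22.9% and 20.8%) and 4 and 12 (23.7% and 22.6%). In letter A alone CR-day was higher than TR-day in 21 and lower in 6 (40.8% and 40.3%), and in letter B alone in 0 and 0 (0% of all genes), where 18 passed at an unadjusted p under 0.05. In letter A alone CR-day was higher than CR-night in 18 and lower in 9 (38.4% and 38.8%), and in letter B alone in 4 and 0 (1.45% and 0.829%). CR-day letter A is, with AL letter B, a set of libraries that stood apart in the shares of reads from mitochondrial genes and from members. Hspg2 was 1.55 log2 units higher in CR-day than in CR-night (edgeR adjusted p = 1.3e-08), 1.94 in letter A and 0.49 in letter B (edgeR adjusted p = 0.184). Col6a2, a chain of the beaded collagen VI, was at 4.74 ± 3.98 CPM in CR-day and 2.12 ± 1.34 in CR-night, and it was called in both letters and with the correction. These means include the collagen-rich libraries. The highest Col6a2 values of CR-day, 17.65 and 15.4 CPM, were in those at 24 h and 44 h, both letter B. The highest of CR-night, 3.962 and 6.766 CPM, were in those at 0 h and 4 h, both letter A. In letter B the other CR-day libraries ran from 0.53 to 3.62 CPM and the CR-night libraries from 0.27 to 3.02 CPM. The letter B call for Col6a2 includes the CR-day libraries at 24 h and 44 h and is not given without them. CR-night and TR-night, which share the window but not the amount of food, differed in 0 of 41 members in either direction (0.235% and 0.277% of all genes; 2 at an unadjusted p under 0.05 by edgeR, and 1 lower with DESeq2). In letter A alone 8 members were higher and 2 lower (19.6% and 16.7% of all genes), and in letter B alone 0 and 0 (0.135% and 0.254%).

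In BAT, 4 members were higher and 3 lower in CR-day than in AL (2.74% and 3.83% of all genes). Col5a3 ran from 17.1 to 35.2 CPM (median 30.6) in CR-day and from 10.1 to 27.9 CPM (median 19.7) in AL. Col27a1 ran from 61.7 to 238 CPM (median 139) and from 54.6 to 111 CPM (median 75.4), and Nid1 from 51.5 to 90.7 CPM (median 64.1) and from 37.9 to 66.8 CPM (median 50.4). The groups overlap for all 3, with the CR-day median above the AL median. The means gave log2 folds of 0.62 ± 0.13 for Col5a3 (edgeR adjusted p = 0.00824), 0.64 ± 0.15 for Col27a1 (edgeR adjusted p = 0.0130) and 0.40 ± 0.10 for Nid1 (edgeR adjusted p = 0.0243), and Col12a1, a FACIT collagen, rose by 0.66 (edgeR adjusted p = 0.0334). Col4a1 was lower, at 128 ± 27.4 CPM (SD, n = 11) against 161 ± 26.5 (n = 12), a log2 fold of -0.30 (edgeR adjusted p = 0.0293), as were Col11a2 (-0.94, edgeR adjusted p = 0.0252) and Col7a1, the anchoring fibril collagen (-0.78, edgeR adjusted p = 0.0284). With the GC correction 5 members were higher and 0 lower, and the 3 falls no longer passed (edgeR adjusted p = 0.0807, 0.0737 and 0.0516). Without rhythm terms in the fit 2 members were higher and 0 lower, and DESeq2 gave 4 higher and 5 lower. The share of all genes is not given for these alternatives or for the single days. On the first day alone 1 member passed, Col27a1 at a log2 fold of 1.00 (edgeR adjusted p = 0.0332), and on the second day 0, with 8 at an unadjusted p under 0.05. Fibroblast markers ran from 181 to 413 CPM in AL and from 230 to 447 CPM in CR-day, and the muscle markers given above were lower in CR-day in the median. Their part in these differences was not tested.

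In BAT the rhythm of 10 of 41 members differed between CR-day and AL (12.1% of all genes), among them Lamb1, Col1a1 and Serpinh1. In AL, Lamb1 was at 59 ± 10.2 CPM (SD, n = 2) at 4 h and 36.1 ± 4.46 at 16 h. In CR-day it was at 24.9 ± 0.459 at 4 h and 63.2 ± 9.49 at 16 h. The libraries of the regimens do not overlap at either time. The fitted Lamb1 peak was 5.81 ± 0.566 h in AL and 18.1 ± 0.977 h in CR-day, and the rhythms differed (edgeR adjusted p = 4.6e-04). Col1a1 ran from 14.5 to 30.8 CPM in AL with a peak at 8.53 ± 0.587 h and from 12.6 to 38.9 CPM in CR-day with a peak at 23.5 ± 1.05 h (edgeR adjusted p = 0.00165 for the change). Serpinh1 went the other way: it was highest in AL at 20 h, at 120 ± 11.2 CPM, and in CR-day at 4 h, at 134 ± 8.31 CPM, with fitted peaks of 20.1 h and 4.24 h (edgeR adjusted p = 0.00423 for the change). Its rhythm passed by itself in AL and did not pass in CR-day.

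In all, 3 of 41 BAT members were rhythmic in AL (10.5% of all genes) and 11 in CR-day (15.1%). Besides the 3 above, those whose rhythm changed were the collagen VI chains Col6a1, Col6a2 and Col6a3, Lama2, and the type IV chains Col4a1, Col4a2 and Col4a5. The fitted peaks of Col6a2, Lama2 and Col6a1 fell at 10.2, 8.77 and 9.16 h in AL and at 22, 21.6 and 23.1 h in CR-day. The fitted peak of Col4a5 was 23.2 h in AL and 10.3 h in CR-day. In AL none of these 7 passed by itself in edgeR's test. In CR-day Col6a3, Col4a1 and Col4a2 passed by themselves, while Col6a1, Col6a2, Lama2 and Col4a5 were rhythmic in neither regimen. Nid2 did not pass in BAT (edgeR adjusted p = 0.116 in AL and 0.389 in CR-day). Col27a1 peaked at 6.92 ± 1.35 h in BAT of CR-day mice (edgeR adjusted p = 0.0234), beside 6.68 h in CR-day liver. Without the BAT library at 32 h whose clock genes read early, 8 members were rhythmic in CR-day and 2 in AL, and 8 changed, given here without the share of all genes. Col4a1 and Col4a2 then no longer did (edgeR adjusted p = 0.0522 and 0.0706). With the GC correction 14 members were rhythmic in AL (13.2% of all genes) and 12 in CR-day (12.7%). The higher count in CR-day was thus not kept with the correction. Each BAT time point rests on 1 library a day.

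The response of the tissues to CR-day, each against its own AL group, differed for 4 members, 3 with the higher value in BAT and 1 with the lower (1.16% and 1.82% of all genes). Col13a1, a transmembrane collagen, had a log2 fold in BAT that was 1.21 ± 0.25 units below that in liver (edgeR adjusted p = 5.8e-04). It was at 1.88 ± 0.743 CPM in CR-day and 2.76 ± 0.975 in AL in BAT, and at 2.65 ± 1.02 and 1.77 ± 0.694 in liver. Col27a1 and Col5a3 rose in BAT, and in liver their log2 folds were -0.52 and -0.29 (edgeR adjusted p = 0.0991 for the latter). The differences were 1.16 ± 0.29 (edgeR adjusted p = 0.00679; 0.114 with the GC correction) and 0.90 ± 0.23 (edgeR adjusted p = 0.00739). Lama3 entered this fit through its liver counts and did not pass the filter in BAT, where it was at 0.574 ± 0.332 CPM in AL and 0.734 ± 0.441 in CR-day, so that its difference of 1.56 ± 0.42 (edgeR adjusted p = 0.0184) rests on 58 and 82 reads there and is given as a value alone.

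Rhythms were also counted in liver among genes that process or surround the matrix. Of 25 collagen-processing enzymes tested, 3 were rhythmic under AL, 7 under CR-day, 3 under TR-day, 10 under CR-night and 9 under TR-night, and 5, 3, 3, 9 and 9 without the rich libraries, beside 12.4%, 16.4%, 15.5%, 35.3% and 26.4% of all genes with all libraries. P4ha1, a prolyl hydroxylase that acts on collagen chains, peaked at 19.1 h in AL (edgeR adjusted p = 1.7e-06), 16.4 h in CR-night, 18.8 h in TR-night and 14.3 h in TR-day (edgeR adjusted p = 2.2e-04), and did not pass in CR-day (edgeR adjusted p = 0.807). In BAT of AL mice it peaked at 18.7 h (edgeR adjusted p = 0.00996). Loxl4, a relative of lysyl oxidase, had an amplitude of 1.3 log2 units in AL with a peak at 0.901 h (edgeR adjusted p = 1.5e-06) and peaked at 13.3 h in CR-day (edgeR adjusted p = 0.00438). Among TGF-beta and PDGF genes, which drive matrix production, Pdgfc peaked at 0.0634 h in AL and 14.8 h in CR-day (edgeR adjusted p = 0.0327), and the receptor Tgfbr2 at 13.8 h and 1.25 h (edgeR adjusted p = 1.4e-05 and 6.5e-05). In BAT level, 3 of 21 TGF-beta and PDGF genes passed between CR-day and AL (6.57% of all genes in either direction): Pdgfra rose by 0.40 log2 units, and Pdgfc and Eng fell by 0.68 and 0.59. Of 35 proteoglycan, elastic fibre and matricellular genes 2 passed, the collagen-binding proteoglycans Dcn (0.45) and Lum (0.51), both higher, and of 25 processing enzymes 2, Loxl1 (-0.87) and Plod1 (-0.33), both lower. Mmp3, a matrix protease, was the single one of 13 proteases and inhibitors to pass (0.88). Dcn, Lum and Pdgfra are also the 3 of 11 tested fibroblast markers that were higher in CR-day.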

How the data were processed

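Polyadenylated RNA of 144 samples was sequenced, and 143 count columns were used. The authors deposited gene-level read counts for liver and BAT and RPKM for the same libraries; per the submitters' processing notes FastQC, cutadapt, STAR and featureCounts were used, and versions, strand setting and genome build are not given in the sources used here. The deposited RPKM values are scaled by the authors to gene length and library size and entered 1 alternative. In 1 unused count column the values repeat another library's. Counts were tested with edgeR 4.0.16 (R 4.3.3): TMM normalization, the filterByExpr filter by group, a quasi-likelihood fit with an intercept, cosine and sine terms of 24 h per group, and Benjamini-Hochberg adjustment over 11926 liver genes, 10966 BAT genes or 12969 genes in the fit of both tissues, with a threshold of 0.05. All liver regimens, and both BAT groups, shared 1 fit. CPM used TMM library sizes; amplitudes and peak times came from a cosine fit to log2 CPM (prior count 2) with a letter term in liver. Lower counts carry larger counting error: members near 1 CPM rest on few reads per library.

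GC content and exon length came from GENCODE vM21 (51 of 62 members have the same versioned identifier, and all 62 have a GC value), and the correction fitted a lowess curve of span 0.3. The fits were tested on simulated counts. These held no difference between letters or with GC content, so they cannot show how such differences affect the calls in liver. Alternatives were DESeq2 1.42.0, limma 3.58.1 on log2 of RPKM plus 0.1 or 1, upper-quartile scaling, no low-count filter, single letters or days, sums per regimen and letter, and others named below. Alternatives that leave out the 6 collagen-rich libraries, leave out the 3 libraries whose clock genes read 6 h or more from their label, or give each letter an intercept were added after seeing the data. The members, gene lists and tests were chosen with earlier results of these data known. Named are 25 core members, up to 6 members with the smallest p past the threshold per test and direction, up to 4 genes per other list, and members of extreme level. Items outside this rule, such as members tested in neither tissue, Col4a5 and Col13a1 in single comparisons, the members listed in the collagen-rich libraries and the libraries themselves, were chosen after their values were seen.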

Additional observations from a re-analysis of the deposited data

Results flagged for a closer look

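The response to CR-day against AL differed between BAT and liver for 4 members, by a test of the difference itself in the fit of both tissues (edgeR, Benjamini-Hochberg adjusted). The log2 fold in BAT minus that in liver was -1.21 for Col13a1 (adjusted p = 5.8e-04), 1.16 for Col27a1 (adjusted p = 0.00679), 0.90 for Col5a3 (adjusted p = 0.00739) and 1.56 for Lama3 (adjusted p = 0.0184). Lama3 did not pass the filter on low counts in BAT, so its difference rests on few reads there and is given as a value alone. The Col27a1 difference did not pass with the GC correction (adjusted p = 0.114). In BAT the regimen and the library letter cannot be told apart, and in liver Col13a1 was 1.13 log2 units higher in CR-day than in AL in letter A and 0.01 in letter B.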

How the results depend on the processing

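Counts of members called are compared here under each alternative. The share of all genes under each is not set beside them, so they do not show whether members differ from other genes. In the fit with a replicate block by library label, liver levels gave 10 members for CR-day against AL, 28, 32 and 27 for CR-night, TR-day and TR-night against AL, 20 and 26 for CR-day against CR-night and TR-day, 1 for TR-day against TR-night and 0 for CR-night against TR-night, none over 1.5 times from the values above; between regimens, 0 to 16 of 24 same-numbered pairs had a correlation over 0.1 (medians -0.373 to 0.182), short of every pair, so the numbers were not taken to pair libraries. Summed per regimen and letter, 0 members passed in edgeR's test in any liver level comparison (1 to 17 at an unadjusted p under 0.05).

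For liver levels, CR-day against AL went from 11 to 20 in letter A, 24 in letter B and 7 with upper-quartile scaling. CR-night against AL went from 27 to 16 in letter A, and TR-day against AL from 29 to 19 with the GC correction. CR-day against CR-night went from 22 to 12 with the correction and 4 in letter B, and CR-day against TR-day from 27 to 10 with the correction, 16 with it and without the rich libraries, and 0 in letter B. TR-day against TR-night went from 1 to 2 in letter A and without the clock-shifted libraries. CR-night against TR-night went from 0 to 10 in letter A and to 1 with DESeq2, with the correction (also without the rich libraries) and without the 6 libraries farthest from their group. BAT level went from 7 to 1 on either RPKM scale, 1 on day 1, 0 on day 2 and 2 without rhythm terms, and the tissue difference from 4 to 2 without rhythm terms.

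For rhythm, AL went from 3 to 5 with an intercept per letter, 14 without the rich libraries (16 with letter intercepts, 18 with the correction as well) and 9 without the 6 farthest libraries. CR-day went from 17 to 7 without the rich libraries (10 and 9 likewise), and TR-day from 4 to 12 and 8 likewise. BAT AL went from 3 to 14 with the correction and 6 with no filter. For changes, TR-day against AL went from 4 to 8 with letter intercepts (7 with the correction), 9 without the rich libraries (16 and 10 likewise) and 8 without the farthest; TR-day against TR-night from 7 to 12 under each of these 3 settings and 16 under the first 2 together; CR-day against AL from 22 to 13 without the rich libraries and 9 without the farthest; CR-night and TR-night against AL from 0 to 2 and 1 with no filter, and TR-night to 1 with upper-quartile scaling.

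Single folds that turned sign were mostly those of Col18a1 and Col5a3. With the correction, and with it but without the rich libraries, Col18a1 stood at 0.26 and 0.27 in CR-night, 0.21 and 0.19 in TR-day and 0.29 and 0.30 in TR-night against AL, and at -0.15 and -0.09 (-0.07 in letter B) in CR-day against TR-day. Col5a3 stood at 0.17 and 0.17 in TR-day and 0.19 and 0.19 in TR-night against AL, at -0.12 and -0.17 in CR-day against TR-day, and, without the rich libraries, at 0.00 in CR-night against AL and CR-day against CR-night. Col8a1 stood at -0.12 for CR-day against AL in letter A, Col14a1 at 0.00 for TR-day against AL in letter B, and Col4a2 at -0.13 for CR-day against TR-day with the correction and without the rich libraries. Of causes, GC content moved with the letters; the cause of the other changes was not tested. Depth limits members near 1 CPM.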
